A study of Mus musculus with 4 samples.

Results

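Iron and heme handling was followed through 8 named genes, picked by their symbols from the 31053 genes in the deposited count matrices: Cd163, Hmox1, Blvrb, Slc40a1, Slc11a1, Tfrc, Fth1 and Ftl1. The rule that picks them is by symbol and holds no threshold on a measured value, although the genes were chosen with earlier results of these data known. A wider list of 54 iron and heme genes, which holds these 8, was followed beside them.

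The cells came from the stromal vascular fraction of inguinal subcutaneous white adipose tissue of male ChATBAC-eGFP mice, in which a bacterial artificial chromosome drives green fluorescent protein from the choline acetyltransferase locus. Live eGFP+ cells were sorted, so membership of the sort rests on this reporter and not on Chat RNA, and red blood cells had been lysed before the sort. All mice were 5 weeks old at the start and spent 3 weeks at thermoneutrality (30C). They were then held for 4 hours more at 30C, or at 4C after a day of acclimation at room temperature. Only the 4C mice had that day, so it cannot be told apart from the hours at 4C. Each temperature had 2 libraries of 4 pooled mice, and single mice within a pool cannot be told apart. P-values for temperature therefore rest on 2 pools per temperature, and an exact permutation test over the 4 libraries cannot fall below p = 0.33. Tests between cell groups compare groups within the same 4 libraries.

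Of the deposited barcodes, 5191 to 5388 per library passed the filters, 21253 in all, with a median of 7518.5 to 8067 unique molecular identifiers (UMIs) per cell. Cells were assigned by marker genes, and 6.4 to 8.28% stayed without a group. The 944 macrophages numbered 164 and 182 in the 30C libraries and 435 and 163 in the 4C libraries. They were gated on at least 10 UMIs and 4 genes of 8 macrophage markers (C1qa, Csf1r, Adgre1 and Cd68 among them). A high level of these markers therefore follows from the gate. Their sum of the 8 was 14248 to 16571 CPM, against 13.3 to 18.4 CPM in lymphoid cells. CPM here is the UMIs of a gene or list in a cell group of a library, scaled to an equal UMI total in each such sum. Within them, 698 cells formed a group with Mrc1 or Folr2 and other markers of that kind, and 134 cells, only 16 to 58 per library, formed a group with Itgax, Trem2, Cd9 or Lpl. The rest were 67 other macrophages and 45 cycling macrophages. The comparison cells were 16367 lymphoid cells (B cells, T cells and innate lymphoid cells, ILCs) and 1482 cycling lymphoid cells, 548 of them B and 934 T. Pairs of libraries shared 5 to 14 cell barcodes. Erythroid markers, which bear on heme genes, summed to 0 to 1.97 CPM in macrophages, with Alas2 at 0, and to 19.9 to 80.5 in cycling lymphoid cells. Their part in the results was not tested.

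Tissue macrophages recycle iron. The receptor CD163 takes up haemoglobin bound to haptoglobin. Heme oxygenase opens the heme ring and frees its iron, and a biliverdin reductase reduces the green product. Freed iron is stored in ferritin, a shell of heavy and light chains, or leaves the cell through ferroportin, the product of Slc40a1. Cells that need iron take up transferrin through the transferrin receptor, the product of Tfrc, on which dividing cells in particular depend. Iron regulatory proteins tie these genes together: when iron is short they bind hairpins called iron responsive elements, which blocks translation when the hairpin lies in the 5′ UTR and protects the transcript from decay when it lies in the 3′ UTR.

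Because that regulation sits in the transcripts themselves, the UTRs were searched for the hairpin. The pattern was an unpaired C, then 5 paired bases with G-T pairs allowed, around a loop that reads CAGTGN. The sequences below are shown to set apart the members that hold the hairpin at the 5′ end from the one that holds it at the 3′ end. They come from the GRCm38 genome, run 5′ to 3′ on the gene's strand, and carry the loop in capitals.

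Fth1, 5′ UTR, chr19:9982733-9982759, plus strand: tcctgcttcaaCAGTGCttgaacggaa

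Ftl1, 5′ UTR, chr7:45459780-45459806, minus strand: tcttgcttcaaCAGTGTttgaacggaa

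Slc40a1, 5′ UTR, chr1:45925466-45925492, minus strand: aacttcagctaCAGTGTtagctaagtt

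Tfrc, 3′ UTR, match 1, chr16:32631220-32631246, plus strand: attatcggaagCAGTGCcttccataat

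Tfrc, 3′ UTR, match 2, chr16:32631599-32631625, plus strand: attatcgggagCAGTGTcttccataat

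Tfrc, 3′ UTR, match 3, chr16:32631664-32631690, plus strand: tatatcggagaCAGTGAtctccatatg

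Tfrc, 3′ UTR, match 4, chr16:32631711-32631737, plus strand: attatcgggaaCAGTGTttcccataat

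Across the annotation, 20 of 20698 genes with a 5′ UTR held the pattern there (0.0966%), and 117 of 20861 genes with a 3′ UTR held it in that part (0.561%). Of the 54 genes of the wider list, these were the 4 with a match. Only the longest complete coding transcript of each gene was searched. Other transcripts of genes without a match, Slc11a2 among them, were not covered. Cd163, Hmox1, Blvrb and Slc11a1 had none in either UTR of the transcript searched, which says only that these letters are not there. A match is a description of sequence, not a measured binding site.

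Macrophages held more of every member than lymphoid cells did. Levels below are CPM of a cell group in a library, and differences are log2 fold changes ± standard error from edgeR's quasi-likelihood test with the library as a block, with p-values adjusted by Benjamini-Hochberg over all genes tested. All 8 members passed at an adjusted p under 0.05 and all 8 were higher in macrophages, where 68.3% of all genes tested passed, 30.8% higher and 37.6% lower. The difference ran from 1.32 ± 0.40 for Tfrc (adjusted p = 0.0169) to 10.37 ± 0.26 for Cd163. Against cycling lymphoid cells 7 of 8 were higher, in a comparison that called 74.4% of genes, and Tfrc was not called there (0.91 ± 0.40, adjusted p = 0.0666), though it was without 30C replicate 1 (1.24, adjusted p = 0.022) or 30C replicate 2 (1.25, adjusted p = 0.0252).

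**Figure D1:**
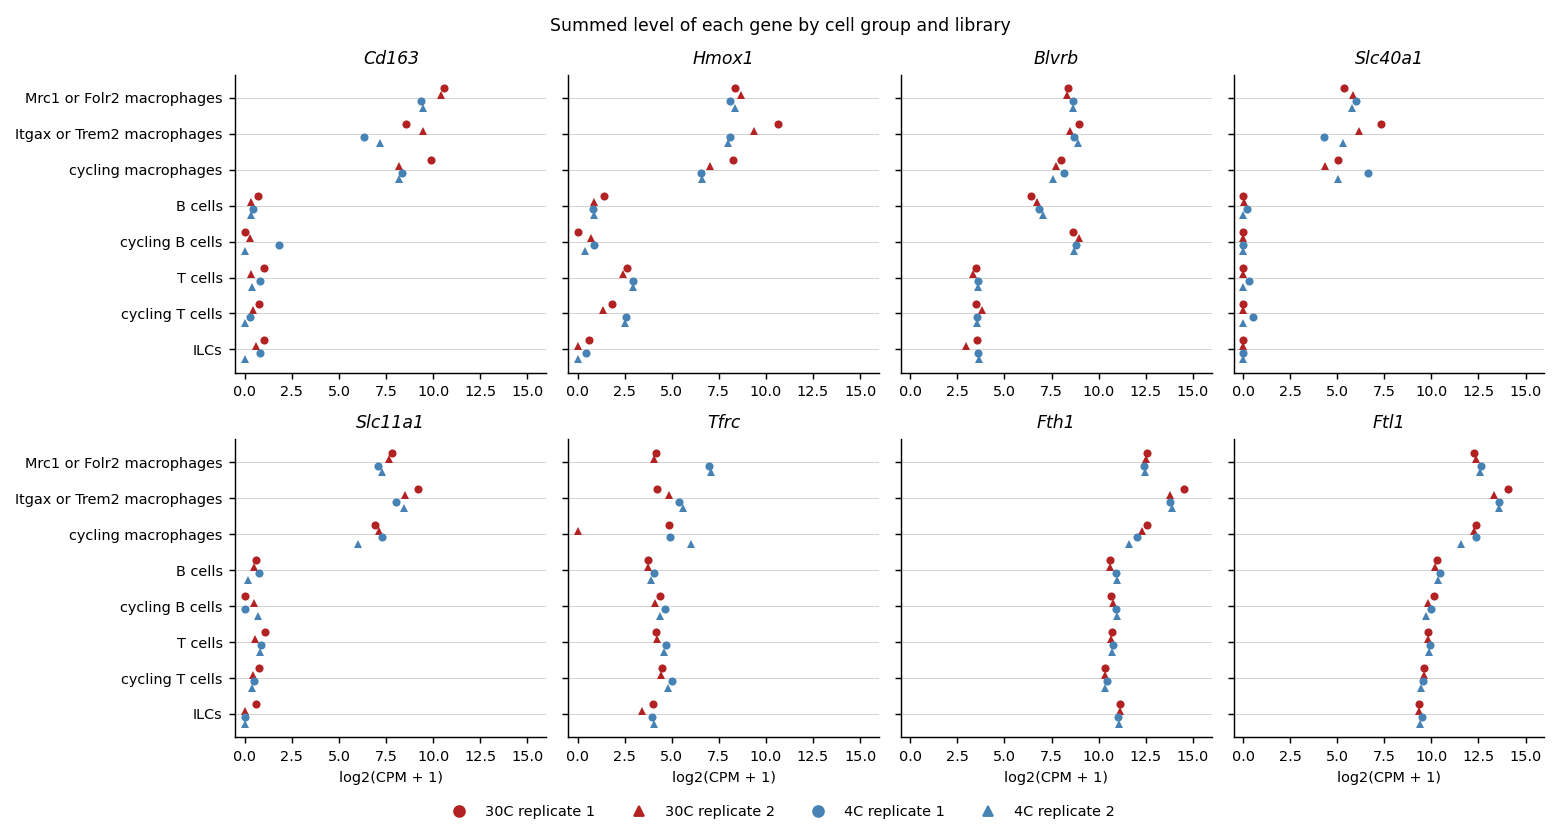
Level of each of the 8 genes, as log2(CPM + 1), by cell group (rows) and library (points, coloured by temperature, with the shape giving the replicate). Outside macrophages Cd163, Slc40a1 and Slc11a1 stay at or under 10.3 CPM and rest on few UMIs. Blvrb reaches macrophage levels in cycling B cells, and Fth1 and Ftl1 have counts in every group.

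Cd163, the scavenger receptor for haemoglobin, lies at chr6:124304656-124330527 on the plus strand of GRCm38. Its level was highest in Mrc1 or Folr2 macrophages, with 1528 and 1341 CPM in the 30C libraries and 658 and 710 in the 4C libraries. The cold libraries were both below the warm ones. Lymphoid cells held 26, 9, 18 and 10 Cd163 UMIs in all in the same order of libraries, 0.273 to 0.790 CPM, and at equal depth 0.0566 to 0.233% of B cells had 1. The source of these UMIs was not tested. In the cold Cd163 fell in Mrc1 or Folr2 macrophages by 1.12 ± 0.11 on the log2 scale, a 2.18-fold fall (edgeR, temperature alone, adjusted p = 1.1e-09). The group was set by markers and the macrophages were not clustered, so whether it holds the same kinds of macrophage at both temperatures was not tested.

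Itgax or Trem2 macrophages held less Cd163 in every library, with 378 and 698 CPM at 30C and 79.3 and 141 at 4C. Here too the cold libraries lay below the warm ones. The fall was 2.40 ± 0.33 on the log2 scale (edgeR adjusted p = 0.00405), from 16 and 28 cells in the warm libraries. Over all macrophages the fall was 1.22 ± 0.10 (edgeR adjusted p = 2.2e-06), and it was past the threshold under all alternatives run for either the whole or the larger group.

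With every cell thinned to 3800 UMIs, 70.7 and 64.3% of Mrc1 or Folr2 macrophages at 30C and 64.3 and 62.5% at 4C had at least 1 Cd163 UMI. The means were 67.5 and 63.4% (two-sided exact permutation p = 0.667, n = 2 against 2). Unthinned, the mean shares were 71.9% at 30C and 74.4% at 4C. Fewer cells held many UMIs in the cold: 26.7 and 21.4% of the cells at 30C held 10 or more Cd163 UMIs at equal depth, against 2.00 and 3.13% at 4C. These were 31 and 27 cells at 30C and 6 and 3 at 4C, although 4C replicate 1 had the most macrophages. Cells with 1 to 4 UMIs made up 13.8 and 14.3% at 30C and 41.0 and 37.5% at 4C. Neither class overlapped between temperatures.

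**Figure D2:**
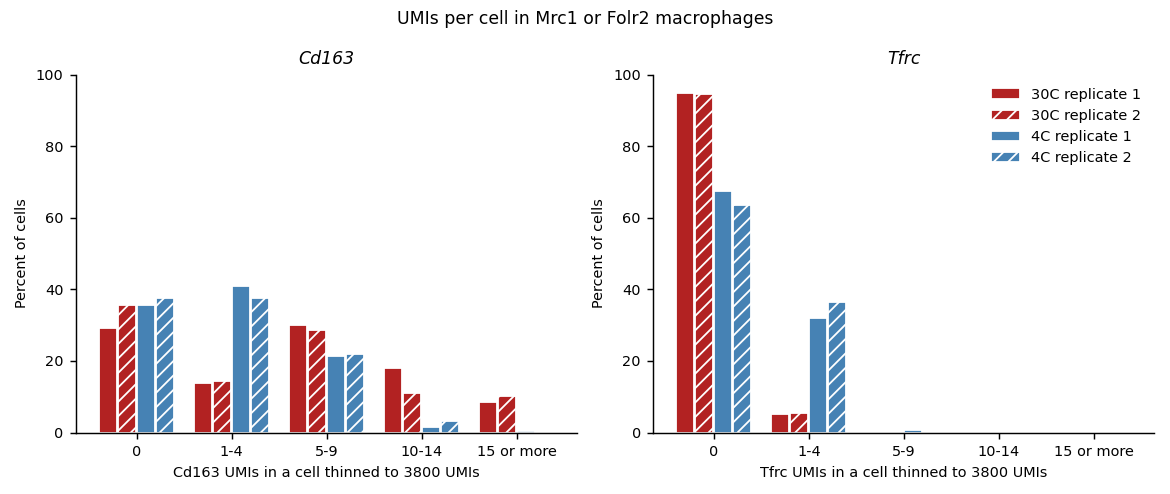
Percent of Mrc1 or Folr2 macrophages (y axis) by the number of UMIs of a gene in a cell thinned to 3800 UMIs (x axis), with 1 bar per library, for Cd163 and Tfrc. The class of 10 or more Cd163 UMIs holds 2.00 and 3.13% of cells at 4C, and cells with a Tfrc UMI make up 5.17 and 5.56% at 30C and 32.7 and 36.5% at 4C.

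Other markers of these macrophages moved in the same libraries. In Mrc1 or Folr2 macrophages Lyve1, a hyaluronan receptor of resident macrophages and one of the markers of that gate, stood at 1110 and 943 CPM at 30C and 128 and 156 at 4C. Ccr2, a chemokine receptor of monocytes, stood at 23.3 and 42.4 at 30C and 661 and 523 at 4C. Mrc1 itself, the mannose receptor that helped define the group, was at 2516 and 2205 against 2195 and 2167. A list of 4 monocyte markers summed to 46.7 and 59.5 CPM at 30C and 672 and 551 at 4C, where nearly all of it was Ccr2, with Chil3 at 0. The 6 B cell markers summed to 59.4 to 86.8 CPM in all macrophages and the 7 T cell markers to 32.7 to 45.4. The part of these shifts in the changes of the iron and heme genes was not tested.

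Hmox1, which encodes the inducible heme oxygenase, lies at chr8:75093621-75100589 on the plus strand. In Mrc1 or Folr2 macrophages it stood at 330 and 407 CPM at 30C and 273 and 323 at 4C. The cold libraries were both lower, by little. Its fall of 0.38 ± 0.12 on the log2 scale passed the threshold (edgeR adjusted p = 0.0262) but was lost with DESeq2 (adjusted p = 0.229), with library totals (edgeR adjusted p = 0.059), without 30C replicate 2 (-0.23, edgeR adjusted p = 0.291) and without 4C replicate 1 (-0.27, edgeR adjusted p = 0.370).

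In Itgax or Trem2 macrophages Hmox1 reached 1602 and 667 CPM at 30C and 268 and 252 at 4C. A single cell of 30C replicate 1 held 347 of that library's 458 Hmox1 UMIs, 75.8%, whereas the richest cell of each other library held 19.2 to 24.4%. The fall of 2.17 ± 0.32 on the log2 scale (edgeR adjusted p = 0.00601) became 1.18 when the richest cell of each library and group was left out, with an edgeR adjusted p = 0.0371. Over all macrophages the fall was 0.74 ± 0.11 (edgeR adjusted p = 0.000387) and 0.58 without the richest cells (edgeR adjusted p = 0.00326). When only the macrophages without a B or T cell marker UMI were kept, 54 to 181 per library, the difference was -0.15 with an edgeR adjusted p = 0.741. The 67 other macrophages held Hmox1 at 342 and 524 CPM at 30C and 1270 and 313 at 4C. In the 45 cycling macrophages it stood at 299 and 131 at 30C and 92.1 and 95.2 at 4C. These groups had 8 to 33 and 2 to 17 cells per library.

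Genes outside iron handling that share NRF2 control with Hmox1 gave mixed values in Mrc1 or Folr2 macrophages. Gclc, a subunit of the enzyme that starts glutathione synthesis, fell by 1.07 ± 0.28 on the log2 scale (edgeR adjusted p = 0.0046), a call lost with DESeq2 (adjusted p = 0.141). Its partner Gclm was at -0.47 ± 0.23 (edgeR adjusted p = 0.161) and Txnrd1, a thioredoxin reductase, at -0.15 ± 0.25 (edgeR adjusted p = 0.733). Srxn1, which repairs peroxiredoxins, was at -0.0046 ± 0.43 (edgeR adjusted p = 0.996).

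Blvrb, whose product reduces biliverdin and flavins, lies at chr7:27447978-27466144 on the plus strand. It stood at 325 and 322 CPM in Mrc1 or Folr2 macrophages at 30C and 398 and 392 at 4C. The libraries did not overlap, yet the difference of 0.24 ± 0.11 was not called (edgeR adjusted p = 0.145). Itgax or Trem2 macrophages held 504 and 357 at 30C and 415 and 475 at 4C, with the cold values inside the warm ones. Across cell groups Blvrb set B cells apart from T cells, with 83.6 to 131 CPM in B cells and 9.11 to 11.2 in T cells. The difference was 3.79 ± 0.08 (edgeR adjusted p = 5.45e-10), in a comparison added after the data were seen that called 69.9% of genes, 5 of the 7 members tested among them. In the cold B cells had 113 and 131 CPM against 83.6 and 106 at 30C, which did not overlap and was not called (0.26 ± 0.10, edgeR adjusted p = 0.14). It was called without 30C replicate 2 (0.44, edgeR adjusted p = 0.0101), without 4C replicate 1 (0.36, edgeR adjusted p = 0.0291) and with the replicate number as a block (edgeR adjusted p = 0.00182). Cycling B cells held 392, 490, 440 and 415 CPM, which overlaps the 357 to 504 of Itgax or Trem2 macrophages.

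Slc40a1, the gene of the exporter ferroportin, lies at chr1:45908068-45926523 on the minus strand and has the 5′ hairpin printed above. Its level in Mrc1 or Folr2 macrophages was 40.4 and 56.2 CPM at 30C and 62.6 and 53.6 at 4C. These libraries overlapped, and the difference was 0.24 ± 0.20 (edgeR adjusted p = 0.459). The 16367 lymphoid cells held 7 Slc40a1 UMIs in all, 6 of them in 4C replicate 1, and its change with temperature was not tested in B, T or cycling lymphoid cells, where it was under the filter on low counts.

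In Itgax or Trem2 macrophages Slc40a1 was at 161 and 69.8 CPM at 30C and 18.9 and 38.6 at 4C. The fall of 2.12 ± 0.43 on the log2 scale was called (edgeR adjusted p = 0.0258). It rested on few UMIs, 46 and 27 at 30C and 15 and 17 at 4C, and 1 cell of 30C replicate 1 held 42 of its 46. Without 30C replicate 1 the difference was -1.46 (edgeR adjusted p = 0.131), and without the richest cell of each library the gene was under the filter on low counts.

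Slc11a1, which encodes the phagosomal metal transporter NRAMP1, lies at chr1:74375195-74386062 on the plus strand. Mrc1 or Folr2 macrophages held 225 and 198 CPM at 30C and 132 and 154 at 4C, and the temperatures did not overlap. It fell by 0.64 ± 0.13 on the log2 scale (edgeR adjusted p = 0.000413), a call that held in each alternative run for that group. Over all macrophages the fall of 0.49 ± 0.14 (edgeR adjusted p = 0.0229) was lost with DESeq2 (adjusted p = 0.0901), without 30C replicate 1 (-0.39, edgeR adjusted p = 0.123), without 4C replicate 1 (-0.28, edgeR adjusted p = 0.244) and without the upper limit on genes per cell (edgeR adjusted p = 0.0738). Itgax or Trem2 macrophages held more of it, 591 and 357 at 30C and 258 and 348 at 4C, and the fall there was not called (-0.71 ± 0.26, edgeR adjusted p = 0.229) except without 30C replicate 2 (-1.03, edgeR adjusted p = 0.0358). Lymphoid cells held 23, 13, 23 and 12 UMIs of it in all.

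Tfrc, the transferrin receptor that brings iron in, lies at chr16:32608920-32632794 on the plus strand, and the 4 hairpins printed above are in its 3′ UTR. In Mrc1 or Folr2 macrophages it stood at 17.1 and 15.5 CPM at 30C and at 123 and 135 at 4C. The 30C values rest on 19 UMIs in each library, and the 4C values on 334 and 133. Both cold libraries were far above both warm ones. Tfrc rose by 2.91 ± 0.21 on the log2 scale, 7.54-fold (edgeR adjusted p = 7.91e-13), and by 2.39 ± 0.17 over all macrophages (edgeR adjusted p = 7.34e-07). Across the alternatives run the rise was 2.83 to 3.00 in the Mrc1 or Folr2 group and 2.23 to 2.51 in all macrophages, past the threshold each time.

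The rise in Tfrc was spread over many cells. At equal depth 5.17 and 5.56% of Mrc1 or Folr2 macrophages at 30C had a Tfrc UMI, and 32.7 and 36.5% at 4C, with the richest cell holding 2.69 and 7.52% of the cold UMIs. The exact permutation p of 0.33 is the smallest that 2 against 2 libraries allow. Unthinned, 13.9 and 10.3% of these cells had a Tfrc UMI at 30C and 47.3 and 50% at 4C. In B cells, which express the gene at a low level, the thinned share was 4.01 to 5.04%, and in T cells 5.59 to 6.60%. Itgax or Trem2 macrophages held 17.5 and 28.4 CPM at 30C and 41.5 and 47.7 at 4C, from 5, 11, 33 and 21 UMIs. Their libraries did not overlap, and the difference of 0.83 ± 0.41 was not called (edgeR adjusted p = 0.411).

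Lymphoid cells held Tfrc at 14 and 13.9 CPM at 30C and 19.1 and 17.2 at 4C. The warm macrophages of the Mrc1 or Folr2 group were at a like level. The difference between all macrophages and lymphoid cells given above averages over both temperatures, and it was lost without 4C replicate 1 (0.99, edgeR adjusted p = 0.0803) and without 4C replicate 2 (0.93, edgeR adjusted p = 0.0962). T cells went from 17.0 and 17.6 to 24.8 and 23.0 CPM, a difference of 0.42 ± 0.10 that was not called (edgeR adjusted p = 0.0567), although it was without 4C replicate 2 (0.49, edgeR adjusted p = 0.0167) and with the replicate number as a block (edgeR adjusted p = 0.0457). B cells went from 12.3 and 12.2 to 15.5 and 14.2 (0.16 ± 0.09, edgeR adjusted p = 0.318).

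Fth1, the ferritin heavy chain with the ferroxidase site, lies at chr19:9980598-9985098 on the plus strand. Its level in Mrc1 or Folr2 macrophages was 5976 and 5770 CPM at 30C and 5471 and 5716 at 4C. The cold libraries were slightly lower and the difference of -0.12 ± 0.10 was not called (edgeR adjusted p = 0.443). Itgax or Trem2 macrophages held 23397 and 14246 at 30C and 14247 and 15193 at 4C, a range above that of each other cell group. The 30C replicates differed more from each other than the temperatures did, and without 30C replicate 2 Fth1 was called lower in the cold (-0.72, edgeR adjusted p = 0.000752), where with all 4 libraries it was not (-0.41 ± 0.21, edgeR adjusted p = 0.418). Lymphatic endothelial cells (7981 to 10274) and stromal cells (5698 to 7577) held as much as or more than Mrc1 or Folr2 macrophages. In B cells Fth1 went from 1539 and 1564 CPM to 1952 and 2029, and its rise of 0.25 ± 0.03 was the only call among the members in those cells (edgeR adjusted p = 0.0024).

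Ftl1, the ferritin light chain that favours the mineral core, lies at chr7:45457944-45459884 on the minus strand. Mrc1 or Folr2 macrophages held 4992 and 5276 CPM at 30C and 6371 and 6178 at 4C. The temperatures did not overlap, and the difference of 0.24 ± 0.10 was not called (edgeR adjusted p = 0.097). It was called with library totals (0.29, edgeR adjusted p = 0.0318). A pseudogene, Ftl1-ps1, is counted apart at 97.9, 75.8, 128 and 123 CPM in those cells, so counts of the pair are uncertain. Itgax or Trem2 macrophages held 17141 and 10148 at 30C and 12274 and 12136 at 4C, and the difference there was -0.54 without 30C replicate 2 (edgeR adjusted p = 0.00544) and 0.19 without 30C replicate 1 (edgeR adjusted p = 0.263). Dendritic cells, at 4275 to 5562, were the group outside macrophages with the most Ftl1. ILCs (646 to 717) and cycling T cells (706 to 774) held the least, followed by T cells (894 to 979) and cycling B cells (831 to 1120), which overlapped.

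In Mrc1 or Folr2 macrophages 4 of 8 members were called, Tfrc up and Cd163, Hmox1 and Slc11a1 down, where 21.8% of 8371 genes were called, 11.3% higher and 10.5% lower. The same 4 were called over all macrophages, against 18.4% of 9284 genes, 9.53% higher and 8.83% lower. In Itgax or Trem2 macrophages 3 of 8 fell (Cd163, Hmox1 and Slc40a1), where 1.90% of 5480 genes were called, 0.766% higher and 1.13% lower. No share was tested against that background.

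**Figure D3:**
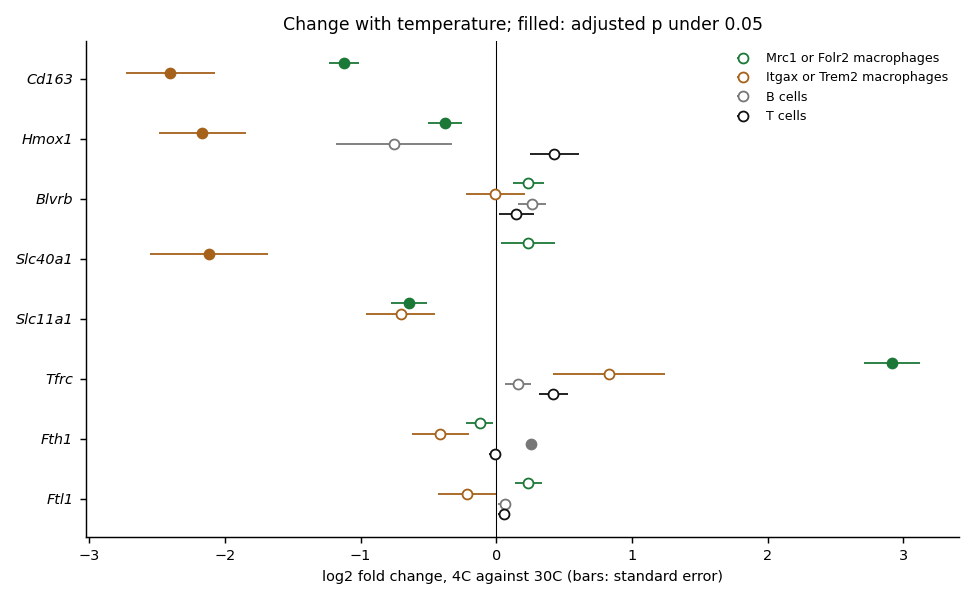
Log2 fold change of 4C against 30C (x axis, with bars of 1 standard error) for the 8 genes in Mrc1 or Folr2 macrophages, Itgax or Trem2 macrophages, B cells and T cells. Filled points passed an adjusted p under 0.05. Tfrc stands at 2.91 in the Mrc1 or Folr2 group, and Cd163 lies left of 0 in both macrophage groups.

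Few members were called with temperature in the B, T and cycling lymphoid cells, and ILCs alone were not tested. Cd163, Slc40a1 and Slc11a1 were under the filter on low counts in B, T and cycling lymphoid cells and were not tested there. Of the other 5, Fth1 alone was called in B cells (1 of 5, where 11.3% of genes were called). None was called in T cells (0 of 5, 5.95% of genes called by edgeR, 2804 of 11713 genes at an unadjusted p under 0.05) and none in cycling lymphoid cells (0 of 5, 0.360% of genes called by edgeR, 1094 of 10820 at an unadjusted p under 0.05). Blvrb was called in the latter without 30C replicate 2 (0.88, edgeR adjusted p = 0.0119, against 0.08 with all 4 libraries). Cycling B cells were 72 of 351 and 219 of 491 cycling lymphoid cells at 30C, and 107 of 324 and 150 of 316 at 4C. In the same order Blvrb stood at 392, 490, 440 and 415 CPM in cycling B cells. In cycling T cells it stood at 10.4, 12.8, 10.4 and 10.5. The part of this mix in the difference was not tested.

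Whether the change with temperature differed between macrophages and lymphoid cells was tested by an interaction term. It was called for 2 of 8 members, in a test that called 7.71% of genes. The change in Tfrc was 2.14 ± 0.22 more in macrophages on the log2 scale (edgeR adjusted p = 1.3e-10) and that in Hmox1 was 0.92 ± 0.19 less, a log2 difference of -0.92 (edgeR adjusted p = 0.000457). Cd163 was not called here (-0.68 ± 0.40, edgeR adjusted p = 0.405), and its lymphoid side rests on the few UMIs counted above. The Hmox1 difference was not rerun without the richest cells, nor with only the macrophages free of B and T cell marker UMIs.

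The 2 macrophage groups also differed in level. Mrc1 or Folr2 macrophages were higher for Cd163 (1.96 ± 0.24, edgeR adjusted p = 3.92e-05) and Tfrc (1.05 ± 0.31, edgeR adjusted p = 0.0253), and lower for Slc11a1 (-1.16 ± 0.13), Fth1 (-1.58 ± 0.09) and Ftl1 (-1.22 ± 0.11). That is 5 of 8 members, in a comparison that called 20.4% of genes, 9.54% higher and 10.8% lower. The Tfrc call was lost with DESeq2 (adjusted p = 0.417), without 4C replicate 1 (edgeR adjusted p = 0.331) and without 4C replicate 2 (edgeR adjusted p = 0.242). Cells of the Itgax or Trem2 group were deeper, with medians of 13512 to 17179 UMIs against 7888 to 9020.

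Their changes with temperature differed for 3 of 8 members, in an interaction test added after the data were seen that called 0.634% of genes. With DESeq2 and without 4C replicate 1 only 1 of the 8 was called, and the number of genes called ran from 12 (DESeq2) to 177 (without 30C replicate 2) against 53. The change was lower in Itgax or Trem2 than in Mrc1 or Folr2 macrophages for Cd163, Hmox1 and Slc40a1. The difference was 1.30 ± 0.28, 1.72 ± 0.31 and 2.38 ± 0.46 on the log2 scale (edgeR adjusted p = 0.0178, 0.00272 and 0.00607). In the Mrc1 or Folr2 group the change in Slc40a1 was not called. Without the richest cell of each library and group the difference was 0.67 for Hmox1 (edgeR adjusted p = 0.376) and 1.20 for Slc40a1 (edgeR adjusted p = 0.729), neither called, and 1.58 for Cd163 (edgeR adjusted p = 0.0132). The Cd163 difference was lost with DESeq2 (adjusted p = 0.202), without 30C replicate 2 (0.67, edgeR adjusted p = 0.104) and without 4C replicate 1 (0.89, edgeR adjusted p = 0.612). That for Slc40a1 was lost without 30C replicate 1 (edgeR adjusted p = 0.0653) and without 4C replicate 1 (edgeR adjusted p = 0.251). For Tfrc the difference of 2.10 ± 0.52 was not called (edgeR adjusted p = 0.0544), though it was without 30C replicate 1 (2.42, edgeR adjusted p = 0.0155). Without 30C replicate 2 the differences in Fth1 (0.54, edgeR adjusted p = 1.01e-07) and Ftl1 (0.79, edgeR adjusted p = 1.21e-15) were called, and with all 4 libraries they were not (0.27 and 0.44).

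Cycling lymphoid cells held more Tfrc and less Ftl1 than the other lymphoid cells. Of the 7 members tested in cycling against other lymphoid cells, 4 were called, where 60.5% of genes were: Tfrc higher by 0.54 ± 0.08 (edgeR adjusted p = 0.00032), Blvrb higher by 1.31 ± 0.14 (edgeR adjusted p = 4.04e-05), Fth1 at -0.18 ± 0.05 (edgeR adjusted p = 0.00964) and Ftl1 at -0.41 ± 0.06 (edgeR adjusted p = 0.000381). Cycling cells were deeper, with medians of 19906 to 21405 UMIs against 6661 to 7347. The mix of B and T cells differed too, so each lineage was compared with itself, a choice made after the data were seen.

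In cycling against other B cells 3 of 4 members tested were called (60.1% of genes called). Tfrc was 0.38 ± 0.12 higher (edgeR adjusted p = 0.00976), Blvrb 1.88 ± 0.08 higher (edgeR adjusted p = 4.69e-14) and Ftl1 lower (-0.53 ± 0.07, edgeR adjusted p = 5.95e-07). In cycling against other T cells 3 of 5 were called (62.0% of genes called), and 1 of 5 without 30C replicate 1 or 4C replicate 2. Tfrc was 0.51 ± 0.09 higher (edgeR adjusted p = 0.000282), with 21.1, 20.9, 31.8 and 27.0 CPM against 17.0, 17.6, 24.8 and 23.0, and higher in each of the 4 libraries. Hmox1 was lower (-0.57 ± 0.21, edgeR adjusted p = 0.0355), from 9 to 23 UMIs per library in cycling T cells. That call was lost with DESeq2 (adjusted p = 0.144) and, in edgeR, without 30C replicate 1 (adjusted p = 0.106), 30C replicate 2 (adjusted p = 0.127) or 4C replicate 2 (adjusted p = 0.0529). Fth1 was at -0.13 ± 0.04 (edgeR adjusted p = 0.0211), a call lost when 30C replicate 1, 4C replicate 1 or 4C replicate 2 was left out (edgeR adjusted p = 0.0885, 0.0627 and 0.0554). Blvrb in cycling T cells was not called (0.33 ± 0.14, edgeR adjusted p = 0.0613), nor was Ftl1 (-0.09, edgeR adjusted p = 0.183), which was called with library totals (-0.32, edgeR adjusted p = 8.42e-05).

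Between B and T cells the other calls were Hmox1, lower in B cells (-2.11 ± 0.26), Tfrc, lower in B cells (-0.19 ± 0.07, edgeR adjusted p = 0.0435), Ftl1, higher (0.86 ± 0.03), and Fth1, higher (0.48 ± 0.06). The Tfrc call was lost with DESeq2 (adjusted p = 0.158), with no filter on low counts (edgeR adjusted p = 0.0728) and without 30C replicate 2, 4C replicate 1 or 4C replicate 2 (edgeR adjusted p = 0.0578, 0.176 and 0.163). With library totals in place of TMM scaling the Fth1 difference was 0.07 (edgeR adjusted p = 0.332). That scaling moved the median of all genes by -0.408 on the log2 scale in this comparison, and by 0.342 between macrophages and lymphoid cells.

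The wider list gave the rest of the pathway. In Mrc1 or Folr2 macrophages 41 of the 54 genes could be tested, and 10 rose and 6 fell in the cold. The median log2 fold change of the 41 was 0.24. Over all genes it was -0.0017, with 11.3% called higher and 10.5% lower. Beside Tfrc the largest rises were Slc46a1, a heme and folate transporter (1.80 ± 0.57, edgeR adjusted p = 0.0208), Slc11a2, the endosomal metal transporter DMT1 that works with the transferrin receptor (1.68 ± 0.36, edgeR adjusted p = 0.000569), and Spic, a transcription factor of iron-recycling macrophages (1.38 ± 0.38, edgeR adjusted p = 0.00762). The largest falls beside Cd163 and Slc11a1 were Hfe, a partner of the transferrin receptors (-1.22 ± 0.13, edgeR adjusted p = 4.18e-09), and Slc25a28, the mitochondrial iron carrier mitoferrin 2 (-0.70 ± 0.19, edgeR adjusted p = 0.0068). Of these, Hfe kept its call under each alternative run. With DESeq2 the adjusted p was 0.385 for Slc46a1, 0.0626 for Slc11a2, 0.274 for Spic and 0.196 for Slc25a28. In edgeR, Slc46a1 was lost without 30C replicate 1, 4C replicate 1 or 4C replicate 2 (adjusted p = 0.366, 0.379 and 0.145), and Spic without 30C replicate 1 or 4C replicate 1 (adjusted p = 0.0664 and 0.306).

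Over all macrophages 44 genes were tested, and 6 rose and 6 fell. The median of the 44 was 0.20. Over all genes it was -0.0032, with 9.53% called higher and 8.83% lower. Beside Tfrc the rises were led by Slc11a2 (1.30 ± 0.27, edgeR adjusted p = 0.00485), Alas1, the entry enzyme of heme synthesis outside red cells (1.16 ± 0.24, edgeR adjusted p = 0.00395), and Cpox, a later enzyme of the same route (1.07 ± 0.27, edgeR adjusted p = 0.0129). Hfe (-1.19 ± 0.11) and Slc25a28 (-0.71 ± 0.15) fell here as well. Without 4C replicate 1 the calls of Slc11a2 (0.97, edgeR adjusted p = 0.0842) and Cpox (0.80, edgeR adjusted p = 0.193) were lost, and with DESeq2 those of Slc11a2 (adjusted p = 0.0791), Cpox (adjusted p = 0.23) and Slc25a28 (adjusted p = 0.102). Under the gate without B or T cell marker UMIs those of Alas1 (edgeR adjusted p = 0.0692) and Slc25a28 (edgeR adjusted p = 0.0753) were lost. In Itgax or Trem2 macrophages 33 genes were tested, and Alas1 rose (1.36 ± 0.31, edgeR adjusted p = 0.0432) while the 3 members named above fell. The median of the 33 was -0.14. Over all genes it was -0.0077, with 0.766% called higher and 1.13% lower. The Alas1 call in that group was lost with DESeq2 (adjusted p = 0.178), without 30C replicate 2 (edgeR adjusted p = 0.212) and without 4C replicate 2 (edgeR adjusted p = 0.145).

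**Figure D4:**
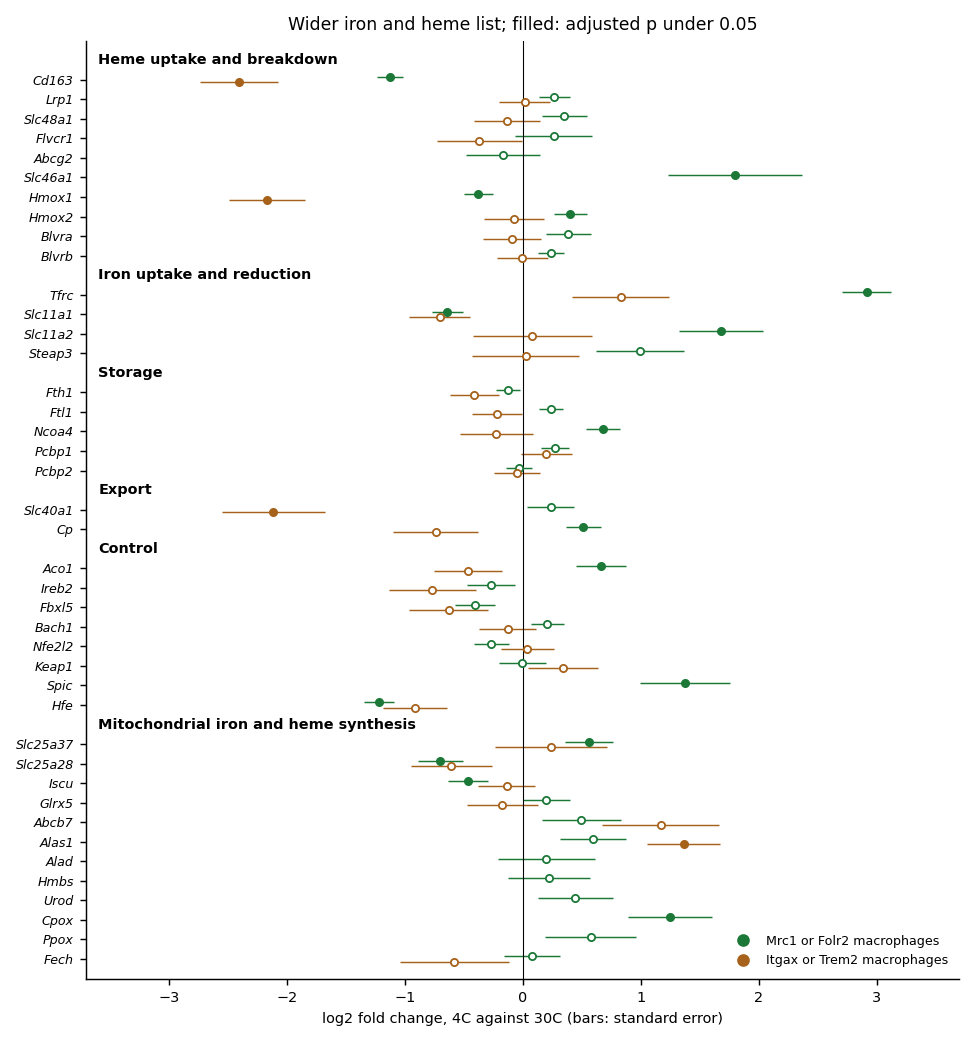
Log2 fold change of 4C against 30C (x axis, with bars of 1 standard error) for the genes of the wider iron and heme list, grouped by role, in Mrc1 or Folr2 and in Itgax or Trem2 macrophages. Filled points passed an adjusted p under 0.05, and the rises of Slc46a1, Slc11a2 and Spic and the fall of Hfe stand out in the Mrc1 or Folr2 group.

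Against lymphoid cells, 36 of the 49 genes tested were higher in macrophages and 4 lower. The median of the 49 was 1.53. Over all genes it was -0.15, with 30.8% called higher and 37.6% lower. Beside Cd163 and Slc40a1, Hfe (8.82 ± 0.19) and Lrp1, the receptor for heme bound to hemopexin (8.37 ± 0.21), stood highest. Among the lower ones were Alad (-1.43 ± 0.17) and Urod (-0.69 ± 0.14), enzymes of heme synthesis, and Glrx5, a carrier of iron-sulfur clusters (-0.86 ± 0.10). Between the macrophage groups 5 of 40 genes were higher in the Mrc1 or Folr2 group and 10 lower. The median of the 40 was -0.17. Over all genes it was 0.02, with 9.54% called higher and 10.8% lower. Cp, the ferroxidase ceruloplasmin (1.58 ± 0.26), and Hfe (0.99 ± 0.16) were higher beside Cd163 and Tfrc. Alas1 (-2.22 ± 0.19), the heme transporter gene Slc48a1 (-1.39 ± 0.20) and the ferrireductase gene Steap3 (-1.23 ± 0.31) were lower beside Fth1. The Steap3 call was lost without 4C replicate 1 (edgeR adjusted p = 0.0719), and that of Urod against lymphoid cells with library totals (-0.35, edgeR adjusted p = 0.0537).

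As a description, the genes most alike each member were sought by Pearson's r of log2(CPM + 1) over 42 sums of cell group and library, with 11897 genes and 12 cell groups. The sums share libraries and cell groups, so r mostly reads which groups express a gene. Cd163 ran with Cbr2 (0.982), Cd209d (0.982) and C5ar1 (0.979), and Slc11a1 with Cd300ld (0.979), C5ar1 (0.975) and Csf1r (0.974). Slc40a1 ran with Fcgr4 (0.969), Cbr2 (0.968) and Csf1r (0.968), and Hmox1 with Ctsb (0.964) and Man1c1 (0.941). The other 4 ran with other genes. Blvrb was closest to Aldh2 (0.933), Snx8 (0.869) and Slc30a5 (0.864), and Tfrc to Lpxn (0.893), Cyth4 (0.893) and Tnfaip8l2 (0.887). Fth1 was closest to Nfe2l2 (0.951), Ywhag (0.946) and Slc39a1 (0.942), and Ftl1 to its pseudogene Ftl1-ps1 (0.963), Stom (0.944) and Gm34084 (0.936).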

How the data were processed

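The authors deposited filtered 10x Genomics UMI counts per gene and cell, made from 3′ single-cell libraries with Cell Ranger and STAR on GRCm38 (mm10). The submitters' processing notes list Cell Ranger 3.1.0. The deposited counts totalled 76058112 to 84468931 per library. Following the study's filters, cells with 200 to 5000 genes and under 7.5% mitochondrial UMIs were kept, and genes in at least 10 cells. Marker counts assigned cells to groups (at least 10 UMIs and 4 genes of the 8 macrophage markers, for example). The marker cut-offs were set after marker counts, but not values of the 8 genes, had been seen, and the genes, lists and tests were chosen with earlier results of these data known. Scrublet (scanpy 1.11.5) marked 1.87 to 2.66% of cells and 1 macrophage, and these were kept in the main analysis. UMIs were summed per library and group and tested with edgeR 4.0.16 (R 4.3.3, TMM, filterByExpr, quasi-likelihood, threshold 0.05), tested on simulated data first. The standard error is the log2 fold change divided by the square root of F. Named genes were all members, and up to 4 rises and 4 falls of the wider list per macrophage comparison. For shares of cells, cells were thinned to 3800 UMIs, and shallower cells left out. Counting intervals do not cover differences between mice. The iron responsive elements were read from the longest complete coding transcript of each gene. Alternatives were DESeq2 1.42.0, other scaling, filters and gates, and leaving out libraries. Leaving out the richest cell, library totals for the temperature comparisons and 4 comparisons were added after the data were seen. Some values are not reported here.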

Additional observations from a re-analysis of the deposited data

Results flagged for a closer look

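Changes with temperature differed between cell groups in 5 results, each by an interaction term in edgeR. Between macrophages and lymphoid cells, Tfrc changed by 2.14 more in macrophages (adjusted p = 1.3e-10), and Hmox1 by -0.92 (adjusted p = 0.000457). Between Mrc1 or Folr2 and Itgax or Trem2 macrophages the difference was 1.30 for Cd163 (adjusted p = 0.0178), 1.72 for Hmox1 (adjusted p = 0.00272) and 2.38 for Slc40a1 (adjusted p = 0.00607) on the log2 scale. Between these macrophage groups Hmox1 and Slc40a1 were not called without the richest cell of each library and group. The Hmox1 difference between macrophages and lymphoid cells was not rerun in that way. The Cd163 difference was lost with DESeq2 (adjusted p = 0.202), without 30C replicate 2 (adjusted p = 0.104) and without 4C replicate 1 (adjusted p = 0.612), and that of Slc40a1 without 30C replicate 1 (adjusted p = 0.0653) or 4C replicate 1 (adjusted p = 0.251).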

How the results depend on the processing

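Of 1385 values under other settings, 1216 were stable (a test kept its direction and side of the threshold, or a count stayed within 1.5 times), 57 lost a call, 25 gained 1, 49 counts moved by more and 38 changed sign.

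Genes called changed by over 1.5 times in these cases. With DESeq2, which left some adjusted p-values as NA, macrophages gave 780 and Mrc1 or Folr2 macrophages 721 (1705 and 1824 with edgeR), Itgax or Trem2 macrophages 55 (104), B cells 737 (1323), T cells 445 (697), cycling lymphoid cells 101 (39), the comparison of the macrophage groups 941 (1703), the interaction of macrophages and lymphoid cells 420 (1040) and that of the macrophage groups 12 (53). The gate without B or T cell marker UMIs gave 889 in macrophages. With no filter on low counts the numbers were 284 in Itgax or Trem2 macrophages, 2078 in B cells, 383 in T cells, 503 in cycling lymphoid cells and 95 in the interaction of the macrophage groups. Library totals gave 2085 in B cells.

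The replicate block gave 212 genes in Itgax or Trem2 macrophages, 2122 in B cells, 1143 in T cells and 522 in cycling lymphoid cells. The numbers name libraries only: the correlation of same-numbered deviations was 0.061 in macrophages, -0.010 in Mrc1 or Folr2 macrophages, 0.017 in Itgax or Trem2 macrophages, 0.255 in B cells, -0.052 in T cells and 0.327 in cycling lymphoid cells, over 2 pairs each. Among named genes the block added the calls of Blvrb in B cells and Tfrc in T cells and changed no other call.

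Leaving out 1 library gave 1175 to 1563 genes in Mrc1 or Folr2 macrophages, 392 to 1302 in T cells, 11 to 416 in cycling lymphoid cells, 1022 to 1413 between the macrophage groups, 677 to 909 in the interaction of macrophages and lymphoid cells and 28 to 177 in that of the macrophage groups. Members called were then 2 to 6 of 8 in Itgax or Trem2 macrophages (3), 1 to 2 in B cells (1), 0 to 1 in T cells (0), 0 to 1 in cycling lymphoid cells (0), 1 to 4 of 8 in the interaction of the macrophage groups (3) and 1 to 2 of 5 in cycling against other T cells (3). B cells gave 2 members with no filter, 3 with library totals and 2 with the replicate block, and T cells gave 1 with library totals and 1 with the replicate block (Tfrc).

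Values uncalled with all libraries that changed sign, in log2 units, were Fth1 in macrophages (0.11 without the upper gene limit, 0.12 under the strict gate, -0.18 to 0.021 leaving out a library), Slc40a1 in macrophages (0.17 without the richest cells), Blvrb in Itgax or Trem2 macrophages (0.043 with no filter, 0.056 with library totals, 0.0014 with the replicate block, 0.11 without the richest cells, -0.23 to 0.24 leaving out a library), Ftl1 there (-0.54 to 0.19), Fth1 in T cells (0.0083 with no filter, 0.038 with library totals, -0.052 to 0.038 leaving out a library), Blvrb in cycling lymphoid cells (-0.42 to 0.88) and Cd163 in cycling against other lymphoid cells (-0.62 to 0.19). Slc40a1 between the macrophage groups ran from -0.78 to 0.58 leaving out a library and was 1.29 without the richest cells (edgeR adjusted p = 0.0282). In the interaction of macrophages and lymphoid cells Blvrb ran from -0.11 to 0.32, Slc11a1 from -0.85 to 0.54 and Slc40a1 from -3.93 to 1.37. In Mrc1 or Folr2 macrophages Srxn1 was 0.049 with library totals and -0.34 to 0.20 leaving out a library, and Txnrd1 -0.36 to 0.15. In the interaction of the macrophage groups Slc11a1 was -0.00078 with no filter, -0.0087 without the richest cells and -0.20 to 0.30 leaving out a library, Fth1 -0.080 to 0.54 and Ftl1 -0.0050 to 0.79. Fth1 in cycling against other B cells was 0.056 with library totals. The cause was not tested.

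The limits are 2 pools per temperature, few cells in the Itgax or Trem2 group and a single library, 4C replicate 1, that holds most of the cold macrophages. Only the 4C mice had a day of acclimation at room temperature. Its part cannot be told apart from that of the 4C exposure.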
